A study of Mus musculus with 12 samples.

Results

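Antral RNA of 60-day-old CEA424-SV40 TAg mice (d60) was compared with antral RNA of 30-day-old CEA424-SV40 TAg mice (d30), with 3 mice and 3 bead arrays at each age, which are 6 of the 12 arrays of the series. The arrays were chosen by the age and genotype in their labels and by no measured value. Both groups were transgenic on the C57Bl/6 background and carried the SV40 early region, which encodes the large T and small t antigens, driven by the minimal CEA promoter of human origin. In both groups the antral sample held tumor together with normal tissue. By the methods of the study, lesions could be seen by eye from 60 days on. For context, values are also given for 3 transgenic mice of 90 days (d90) and for 3 wild-type C57Bl/6 controls, whose label gives an age of 2 to 6 months. That label names no control matched in age to the d30 or d60 mice, so growth of the lesion and 30 days of ageing of the stomach cannot be told apart. RNA came from whole tissue, in which more cells of a type and more RNA per cell cannot be told apart either. Of the 46116 probes on the array, 22067 were tested, those that exceeded a normalized signal of 100 in 3 or more of the 12 arrays. All signals below are background-corrected, quantile-normalized intensities on a linear scale, and are given for mouse 1, 2 and 3 in that order.

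SV40 large T antigen binds the retinoblastoma proteins and p53. Loss of retinoblastoma protein function frees the E2F transcription factors, which drive genes of DNA replication and the cell cycle. The antral mucosa consists mainly of mucous cells, with scattered enteroendocrine cells among them. Enteroendocrine cells make peptide hormones and amines such as serotonin, store them in granules together with granins, and arise from progenitors under transcription factors that include Neurod1 and Nkx2-2. Tumors of this lineage are called neuroendocrine.

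The probe specific for SV40 large T antigen, the transgene product, gave 159, 112 and 106 at d60, against 80.1, 127 and 93.4 at d30. The groups overlapped through d30 mouse 2. The difference was 0.33 ± 0.20 on the log2 scale (SE, adjusted p = 0.515, two-sided exact permutation p = 0.3, where 0.1 is the smallest that 3 against 3 arrays allow). At d90 this probe gave 175, 175 and 143, and in controls 69.1, 72.3 and 67.5. The probe shared by large T and small t antigen gave 107, 94.0 and 88.2 at d60 and 83.0, 113 and 77.8 at d30, and the small t probe stayed below the filter. The transgene signal was low on this platform, and no difference between the ages was detected with it.

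The 6 arrays resembled each other closely, with correlations of log2 signal between 0.953 and 0.981, and the highest of these lay across the groups, between d60 mouse 2 and d30 mouse 1. The first principal component of the 6 arrays held 34.1% of the variance. On it the d60 mice lay between -26.6 and -9.6 and the d30 mice between -4.3 and 26.8, so the ages did not overlap, with d30 mouse 1 next to the d60 mice. The Y-linked genes Eif2s3y and Kdm5d were high in 1 mouse of each group. Eif2s3y, for example, gave 502, 84.9 and 59.0 at d60 and 77.9, 70.7 and 346 at d30. Some mice stood apart in markers of neighbouring tissues, and those values are given with the marker lists near the end.

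Between d60 and d30 the called probes moved almost wholly upward, but the tested probes as a whole did not. Over all of them 9865 lay above 0 and 12202 below, with a median of -0.025 on the log2 scale. With limma and Benjamini-Hochberg adjustment over all 22067 probes, 78 probes were higher at d60 (0.353% of those tested) and 1 was lower (0.00453%). The 78 rises ran from 0.67 to 2.14 on the log2 scale with a median of 0.96, and 35 of them reached 2-fold. Of the 78 probes, 40 carried a gene symbol and 38 did not. In all 78 every d60 mouse was above every d30 mouse, an order found in 10.2% of all probes, and the reverse order was found in 9.51%. At an unadjusted p below 0.05 there were 1837 probes higher and 1058 lower. On the deposited normalized values that split was 2625 higher to 300 lower. The adjusted p-values of the 78 lay between 0.0205 and 0.0497, so small changes of setting decided the count. It fell to 7 without d60 mouse 1, and to 0 without d60 mouse 2, without d60 mouse 3 or without d30 mouse 3. It became 227 without d30 mouse 1 and 177 without d30 mouse 2, with 51 lower in the last case. In each of these fits all 78 probes stayed above 0, which was fixed in advance because none of them overlapped between the ages.

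**Figure D1:**
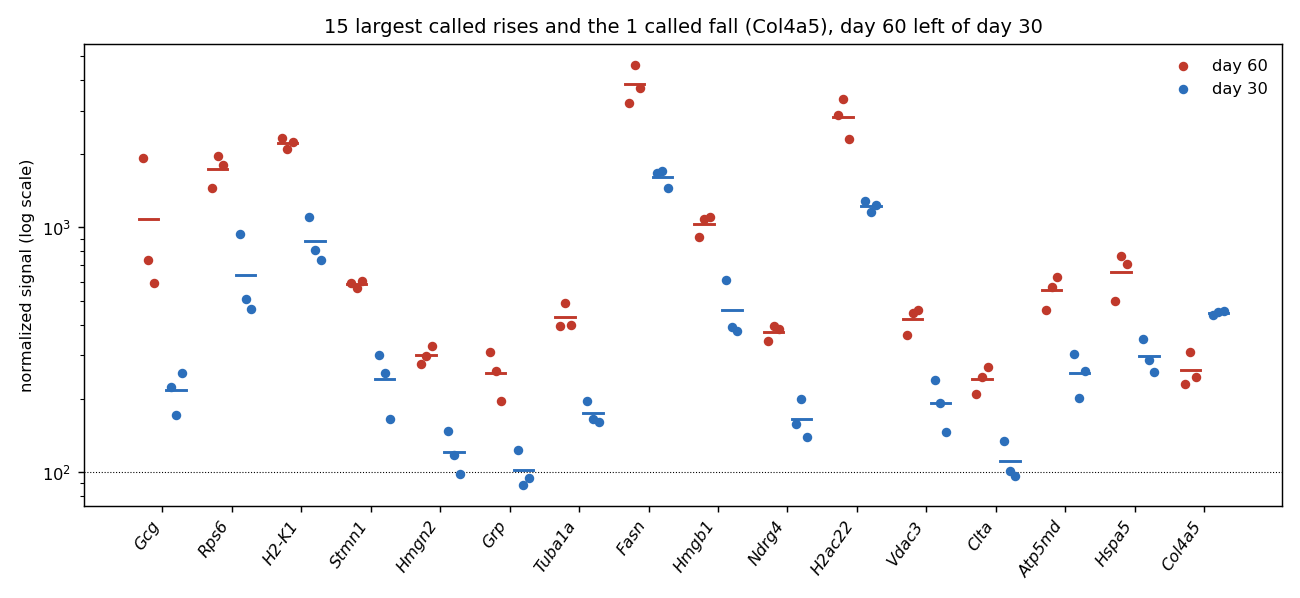
Normalized signal (log scale) of the 15 largest called rises and of Col4a5, the called fall, in each mouse at day 60 (left, red) and day 30 (right, blue), with bars at the group means and a dotted line at a signal of 100. In all 16 genes the 3 values of one age lie beyond the 3 of the other, and Gcg has the widest spread at day 60, between 591 and 1923.

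Glucagon, secreted as glucagon-like peptides by gut endocrine cells, showed the largest called rise. Gcg gave 1923, 737 and 591 at d60, against 223, 172 and 254 at d30. Mouse 1 of d60 was far above the other two, but every d60 value exceeded every d30 value. The rise was 4.41-fold, or 2.14 ± 0.36 on the log2 scale (SE, adjusted p = 0.0457), and it ran between 1.63 and 2.48 when each mouse was left out in turn. Grp, which encodes gastrin-releasing peptide, a stimulator of gastrin secretion, gave 311, 260 and 195 at d60 and 123, 89.0 and 94.7 at d30 (1.31 ± 0.19, adjusted p = 0.0331). Mice 2 and 3 of d30 lay below a signal of 100, so the fold of Grp rests on signals near background.

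Etv1 and Neurod1, from a list of endocrine lineage factors, rose with them. The study describes ETV1 as a regulator in gastrointestinal stromal tumors, and names Nkx2-2 and Neurod1 for the endocrine lineage. Etv1, an ETS factor, gave 919, 776 and 652 at d60 and 339, 433 and 316 at d30 (1.11 ± 0.17, adjusted p = 0.0379). Neurod1, which drives differentiation of enteroendocrine cells, gave 275, 218 and 182 at d60 and 123, 116 and 105 at d30 (0.96 ± 0.16, adjusted p = 0.0444). Neither gene overlapped between the ages. In the list of 16 measured endocrine lineage factors these were the 2 called, and 15 of the 16 lay above 0, with a median of 0.46. Over all 5764 named genes, 36 were called higher, 2818 lay above 0 and the median was 0.00. These values are set beside the counts of every list below, but they are not a like reference for the endocrine lists. In all, 257 probes got a gene name only from the study's tables, which include genes raised in d90 tumors of this series. The probes of Neurod1, St18, Gcg, Grp, Sct, Tph1, Ddc, Hdc and Gad2 are among them. A probe bright only at d90 could also pass the filter. The endocrine lists were thus partly drawn from the same data, and their upward counts are no independent evidence. St18, a zinc finger factor, and Nkx2-2, a homeobox factor of the same lineage, did not pass. St18 gave 236, 196 and 160 at d60 and 129, 128 and 115 at d30 (0.65 ± 0.15, adjusted p = 0.114). Nkx2-2 gave 254, 159 and 161 at d60 and 87.2, 144 and 71.9 at d30 (0.95 ± 0.26, adjusted p = 0.167).

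The other hormone genes pointed upward with more spread. Of 13 measured genes for peptide hormones and their receptors, Gcg and Grp were called and 12 lay above 0 (median 0.57). Sct, which encodes secretin, had the brightest signal among them: 14940, 8945 and 6347 at d60, against 1420, 3613 and 2813 at d30. The groups did not overlap, yet the difference of 1.96 ± 0.36 just missed the threshold (adjusted p = 0.0542). It passed without a filter (adjusted p = 0.0131) and without d30 mouse 2 (adjusted p = 0.0302), while without d60 mouse 2 the adjusted p was 0.219. Pdyn, the prodynorphin gene, gave 867, 440 and 362 at d60 and 176, 278 and 224 at d30 (1.22 ± 0.29, adjusted p = 0.12). Calca, the gene of calcitonin and its related peptide, gave 193, 139 and 85.2 at d60 and was not above background at d30 with 79.4, 71.3 and 69.1. That difference is at least 1.32-fold, and it was not called (adjusted p = 0.183). Iapp, the amylin gene, gave 217, 180 and 162 at d60 and 126, 128 and 113 at d30 (adjusted p = 0.106).

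To show the letters upstream of hormone genes that moved in parallel, promoter windows from RefSeq (GRCm38.p6, 250 bases before to 50 after the start) were searched on both strands for the E-box CAGATG, a sequence that Neurod1 and related factors can bind. The Gcg window (chr2:62483604-62483903, minus strand) held it at 2 places and the Sct window (chr7:141279084-141279383, minus strand) at 1. The matches are in capitals.
Gcg: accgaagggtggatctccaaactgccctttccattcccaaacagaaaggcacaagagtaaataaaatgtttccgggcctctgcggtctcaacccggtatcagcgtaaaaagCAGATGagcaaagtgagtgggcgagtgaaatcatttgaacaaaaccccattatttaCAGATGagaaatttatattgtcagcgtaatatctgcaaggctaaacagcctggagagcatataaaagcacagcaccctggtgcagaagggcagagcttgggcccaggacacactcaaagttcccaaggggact
Sct: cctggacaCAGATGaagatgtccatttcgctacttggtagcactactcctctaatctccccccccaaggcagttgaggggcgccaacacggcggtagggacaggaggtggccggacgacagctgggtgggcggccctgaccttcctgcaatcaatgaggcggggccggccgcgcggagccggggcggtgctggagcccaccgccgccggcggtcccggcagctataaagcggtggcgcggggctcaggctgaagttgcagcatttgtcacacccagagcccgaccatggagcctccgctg
This hexamer is common. It occurred in 17.2% of all 32851 windows, and in 7 of the 42 windows (16.7%) of the 33 called genes that had a window. Of 16 genes that the study itself singled out, 14 had a window. There 4 of 16 windows held the hexamer, those of Etv1, Gcg, Nkx2-2 and Sct. Grp and Calca, also hormone genes of that set, gave no match.

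Genes for amine synthesis had wide differences that did not pass. Tph1, which limits the rate of serotonin synthesis outside the brain, gave 2216, 1268 and 1012 at d60, against 302, 920 and 405 at d30 (1.55 ± 0.39, adjusted p = 0.132). Ddc, the decarboxylase that completes serotonin, gave 1845, 979 and 1037 at d60 and 321, 717 and 419 at d30 (1.43 ± 0.30, adjusted p = 0.0869). For both genes d60 mouse 1 was the highest and d30 mouse 2 the nearest to the d60 range. Hdc, which makes histamine, gave 473, 316 and 315 at d60 and 204, 248 and 204 at d30 (0.73 ± 0.17, adjusted p = 0.12). Gad2, a GABA-forming enzyme, gave 616, 271 and 272 at d60 and 88.3, 245 and 164 at d30 (1.23 ± 0.38, adjusted p = 0.216). All 7 measured genes of this list lay above 0 and none was called.

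Of 30 measured genes of the neuroendocrine granule none was called, while 29 lay above 0 and 20 had an unadjusted p below 0.05 in that direction. Members such as Chga, Chgb, Resp18, Scg5 and Snap25 were named only through the study's tables, so these counts are no independent evidence of a rise. In 16 of the 30 every d60 mouse was above every d30 mouse, against 788 of all 5764 named genes. Their median difference was 0.45. Averaged over the 30 genes, the log2 signal was 8.58, 8.13 and 8.06 at d60, against 7.58, 7.96 and 7.66 at d30. Each d60 mouse lay above all d30 mice, by the narrowest margin over d30 mouse 2. Scg2, encoding secretogranin II, gave 1979, 1034 and 842 at d60 and 239, 783 and 385 at d30 (1.53 ± 0.41, adjusted p = 0.156). Resp18, a protein of the endocrine secretory pathway, gave 4062, 2236 and 1887 at d60 and 831, 1613 and 1067 at d30 (1.19 ± 0.30, adjusted p = 0.132). Scg5, the chaperone of a prohormone convertase, gave 786, 506 and 433 at d60 and 281, 382 and 282 at d30 (0.84 ± 0.22, adjusted p = 0.145). Chga, encoding chromogranin A, gave 2112, 1045 and 1087 at d60 and 637, 816 and 789 at d30 (0.85 ± 0.24, adjusted p = 0.182). Snap25, a vesicle fusion protein, gave 1319, 682 and 716 at d60 and 318, 630 and 494 at d30 (0.90 ± 0.29, adjusted p = 0.223). Chgb, encoding chromogranin B, overlapped between the ages. It gave 4374, 1777 and 1755 at d60 and 308, 3686 and 381 at d30 (1.66 ± 0.78, adjusted p = 0.403). Without d30 mouse 2 the Chgb difference was 2.80 (adjusted p = 0.0171).

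**Figure D2:**
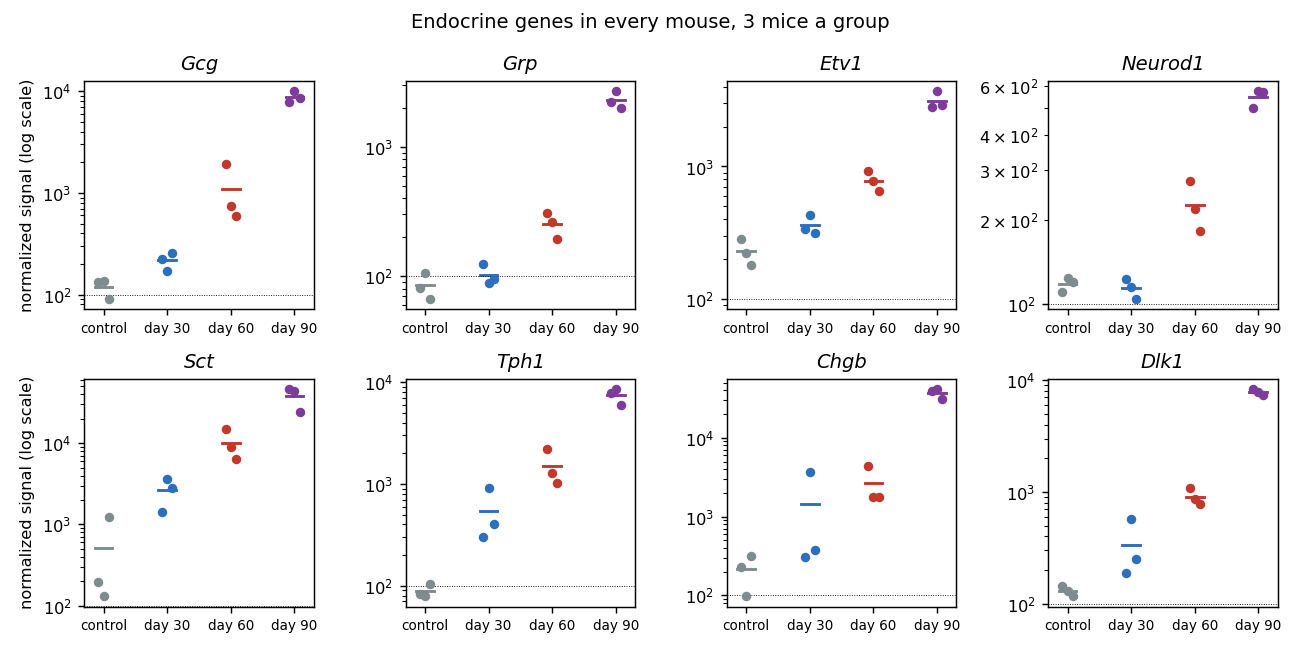
Normalized signal (log scale) of 8 endocrine genes in each control, day 30, day 60 and day 90 mouse, with bars at the group means and a dotted line at 100. The day 60 values lie above all day 30 values in every panel except Chgb, where day 30 mouse 2 reaches 3686, and the day 90 values are the highest in all 8.

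The order of the mice repeated across these genes. In 25 of the 30 granule genes d60 mouse 1 was the highest d60 mouse, and in 19 of them d30 mouse 2 was the highest d30 mouse. Among the 16 lineage factors the same mice were the highest in 13 and 10 genes. The signal of large T antigen was also highest in d60 mouse 1 and d30 mouse 2, as given above, and its part in the order of the mice was not tested. Among 16 genes that the study itself singled out from this series, and which are therefore no independent evidence, 4 were called (Gcg, Grp, Etv1 and Neurod1). All 16 lay above 0, with a median of 1.15. They include Klf4 and Elf3, which the study reports as depleted in d90 tumors, so their sign here is the opposite one. At d90 against controls Klf4 differed by -0.20 (adjusted p = 0.417) and Elf3 by -0.52 (adjusted p = 0.0339). Dlk1, an imprinted gene for a Notch-like membrane protein, gave 1083, 871 and 774 at d60 and 189, 575 and 252 at d30 (1.58 ± 0.33, adjusted p = 0.0865). Klf4, a factor of differentiated surface epithelium, gave 2659, 2233 and 2308 at d60 and 1784, 1559 and 1161 at d30 (0.70 ± 0.17, adjusted p = 0.12). Elf3, an epithelial ETS factor, gave 1040, 1130 and 1377 at d60 and 1236, 903 and 1130 at d30 (0.12 ± 0.16, adjusted p = 0.79).

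Genes of neurons and of the cytoskeleton, many of which neuroendocrine cells also express, contributed several called rises. Tuba1a, an alpha tubulin of neurons and dividing cells, had the smallest adjusted p among the tested probes that carry a symbol. It gave 394, 493 and 401 at d60, against 196, 166 and 160 at d30 (1.30 ± 0.14, adjusted p = 0.0205). Ndrg4, a gene expressed mainly in brain and heart, gave 344, 396 and 385 at d60 and 157, 199 and 140 at d30 (1.20 ± 0.15, adjusted p = 0.0226). Pak3, a kinase of neuronal actin regulation, gave 208, 216 and 166 at d60 and 111, 103 and 113 at d30 (0.84 ± 0.13, adjusted p = 0.0401). Cyfip2, a subunit of the WAVE actin regulator, gave 299, 276 and 231 at d60 and 148, 155 and 139 at d30 (0.86 ± 0.13, adjusted p = 0.038). Of 21 measured markers of enteric neurons and glia none was called and 17 lay above 0 (median 0.31). Map1b and Gap43, which act in axon growth, came nearest, with differences of 0.63 ± 0.15 and 0.60 ± 0.15.

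Among genes of cell division a few rose and most did not pass. Pcna, the sliding clamp of DNA polymerase and an E2F target, gave 384, 421 and 362 at d60, against 206, 204 and 160 at d30 (1.04 ± 0.14, adjusted p = 0.0267). It was the only called gene of 22 measured E2F and replication genes, of which 16 lay above 0 (median 0.12). Uhrf1, which maintains DNA methylation during replication, gave 1064, 1195 and 785 at d60 and 560, 729 and 476 at d30 (0.79 ± 0.19, adjusted p = 0.13). Stmn1, which destabilizes microtubules and is high in dividing and endocrine cells, gave 593, 567 and 607 at d60 and 301, 255 and 165 at d30 (1.34 ± 0.20, adjusted p = 0.035). It was the only called gene of 18 in the mitosis list, with 16 of 18 above 0 (median 0.21). Spc25, a kinetochore subunit, gave 1315, 810 and 751 at d60 and 345, 688 and 335 at d30 (1.11 ± 0.29, adjusted p = 0.146). Cenpa, the centromeric histone, gave 1271, 1319 and 1110 at d60 and 699, 1070 and 628 at d30 (0.66 ± 0.19, adjusted p = 0.182). Mki67, the marker of cycling cells, differed by 0.39 with an unadjusted p of 0.213. Of 11 p53 target genes none was called (median -0.02).

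Several called genes encode chromatin proteins, a grouping made after their values were seen. H2ac22, a replication-dependent H2A histone gene, gave 2867, 3334 and 2288 at d60, against 1279, 1159 and 1236 at d30 (1.19 ± 0.15, adjusted p = 0.0226). Hmgn2, a nucleosome-binding protein, gave 277, 299 and 328 at d60 and 148, 117 and 98.1 at d30 (1.33 ± 0.16, adjusted p = 0.0219). Hmgb1, a DNA-bending protein, gave 916, 1086 and 1102 at d60 and 612, 391 and 376 at d30 (1.20 ± 0.19, adjusted p = 0.0383). Ptma, the abundant nuclear protein prothymosin alpha, gave 3080, 3951 and 3473 at d60 and 2186, 1553 and 1415 at d30 (1.05 ± 0.17, adjusted p = 0.0444). Hmgb1, Hmgn2, Ptma and the ribosomal protein genes have many near-identical processed pseudogenes, and histone genes have close copies, so probes to them may also bind other copies. The same RefSeq windows were searched for the E2F-type octamers TTTCCCGC, TTTCGCGC, TTTGCCGC and TTTGGCGC on both strands. They occurred in 2.26% of all windows and in 3 of the 42 windows of the called genes, those of H2ac22, Fasn and Ptma. The window of H2ac22 (chr13:21787199-21787498, minus strand) held 2, in capitals here, the last of them on the opposite strand. That last match begins at base 291 of the window, so it lies after the transcription start and not upstream.
H2ac22: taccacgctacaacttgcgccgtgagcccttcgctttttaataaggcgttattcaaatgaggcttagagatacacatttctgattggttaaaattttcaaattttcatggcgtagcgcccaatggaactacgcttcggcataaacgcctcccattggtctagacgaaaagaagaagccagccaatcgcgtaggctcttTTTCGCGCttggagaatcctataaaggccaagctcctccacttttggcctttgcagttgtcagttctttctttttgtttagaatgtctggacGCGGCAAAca
No match lay in the window of Pcna, which says only that these letters are not there.

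Genes of protein synthesis and of the secretory route were called singly, without their lists. Rps6, a protein of the small ribosomal subunit, gave 1443, 1947 and 1804 at d60, against 943, 509 and 466 at d30, a 2.83-fold rise (adjusted p = 0.041). The 70 measured ribosomal protein genes had 35 above 0 and a median of 0.00, and Rps6 was the only one called by its brightest probe. Rpl30 just missed with 574, 810 and 795 at d60 and 449, 336 and 299 at d30 (1.01 ± 0.19, adjusted p = 0.0543). Eif4b, a translation initiation factor, gave 316, 304 and 338 at d60 and 180, 173 and 179 at d30 (0.85 ± 0.11, adjusted p = 0.0267), but its second probe, near background, did not follow (-0.28 ± 0.14). Paip2, which restrains translation through the poly(A)-binding protein, gave 595, 727 and 649 at d60 and 395, 276 and 323 at d30 (1.00 ± 0.15, adjusted p = 0.038). Tars, a threonyl-tRNA synthetase, gave 607, 640 and 603 at d60 and 371, 363 and 410 at d30 (0.69 ± 0.12, adjusted p = 0.0444). Hspa5, the main chaperone of the endoplasmic reticulum, gave 500, 762 and 709 at d60 and 351, 286 and 258 at d30 (1.13 ± 0.18, adjusted p = 0.0401). The other 4 measured genes of the stress response of that compartment lay between -0.13 and 0.15. Clta, a clathrin light chain, gave 209, 244 and 270 at d60 and 134, 101 and 96.8 at d30 (1.13 ± 0.16, adjusted p = 0.0312). Gorasp2, a Golgi stacking protein, gave 1793, 2120 and 1781 at d60 and 1144, 951 and 904 at d30 (0.93 ± 0.14, adjusted p = 0.035).

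Atp5md, a small subunit of ATP synthase, gave 462, 573 and 629 at d60, against 303, 201 and 258 at d30 (1.13 ± 0.17, adjusted p = 0.038). Vdac3, a channel of the outer membrane, gave 362, 447 and 462 at d60 and 238, 191 and 146 at d30 (1.16 ± 0.18, adjusted p = 0.0383). Of 45 measured respiratory chain genes, in contrast, 12 lay above 0 (median -0.13) and none was called. Ndufb4 stood at the upper end of them with 560, 759 and 755 at d60 and 510, 227 and 335 at d30 (1.02 ± 0.26, adjusted p = 0.137). Ndufa5 stood near the lower end with 2305, 2653 and 2548 at d60 and 3190, 3316 and 3578 at d30 (-0.43 ± 0.12, adjusted p = 0.173).

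Of the genes of antigen presentation, H2-K1 and H2-T10 rose. H2-K1, a classical MHC class I heavy chain, gave 2322, 2083 and 2222 at d60, against 1098, 808 and 734 at d30 (1.35 ± 0.16, adjusted p = 0.0219). H2-T10, a non-classical class I gene, gave 399, 380 and 365 at d60 and 215, 202 and 192 at d30 (0.91 ± 0.11, adjusted p = 0.0226). Class I genes are near-identical in sequence, and their probes may share targets. Ifi47, an interferon-induced GTPase, gave 263, 223 and 220 at d60 and 143, 143 and 120 at d30 (0.80 ± 0.13, adjusted p = 0.0444). It was the 1 gene called of 25 in the interferon list, where 22 lay above 0 (median 0.17). Oas1a, a sensor of double-stranded RNA, gave 1816, 1154 and 1231 at d60 and 861, 989 and 923 at d30 (0.57 ± 0.17, adjusted p = 0.198). Irf1 ran the other way with 315, 283 and 286 at d60 and 380, 472 and 366 at d30 (-0.45 ± 0.13, adjusted p = 0.188).

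In lipid synthesis 2 enzymes rose apart from their pathway. Fasn, fatty acid synthase, gave 3227, 4603 and 3724 at d60, against 1670, 1692 and 1447 at d30 (1.25 ± 0.15, adjusted p = 0.0219). Idi1, an isomerase of the sterol route, gave 168, 210 and 214 at d60 and 124, 94.3 and 103 at d30 (0.88 ± 0.15, adjusted p = 0.0444). The other 18 of 20 measured genes of sterol and fatty acid synthesis were not called, and the list's median was 0.00. Hmgcs1 gave 7224, 8163 and 7701 at d60 and 8093, 10310 and 9317 at d30 (-0.26 ± 0.13, adjusted p = 0.426).

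**Figure D3:**
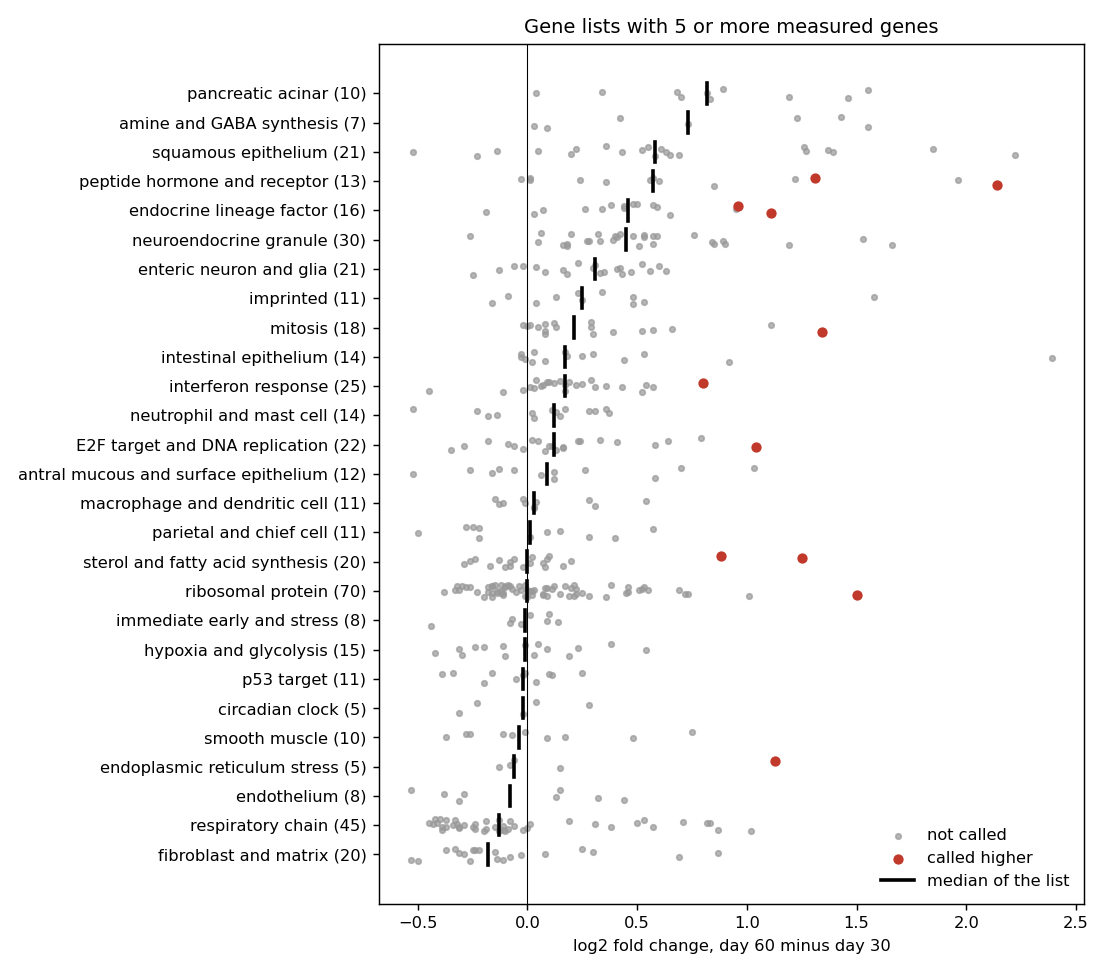
Log2 fold change, day 60 minus day 30, of each measured gene (grey, red where called higher) in lists with 5 or more measured genes, with the number measured in brackets and a black bar at the list's median. The lists of endocrine genes sit to the right with medians of 0.45 to 0.73, the lists of pancreatic and squamous genes also sit to the right with no called gene, and the ribosomal list centres on 0. Some members of the endocrine lists were named only through the study's tables, which include genes raised at day 90.

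A single probe fell past the threshold. Col4a5, a chain of basement membrane collagen IV, gave 228, 310 and 245 at d60, against 439, 451 and 455 at d30. The fall was 1.73-fold (-0.79 ± 0.14, adjusted p = 0.0497), and the groups did not overlap. It missed the threshold without any 1 of the d60 mice, without d30 mouse 1 and without d30 mouse 3 (adjusted p between 0.0557 and 0.184). The next genes in this direction did not pass. Igfbp3, a carrier of insulin-like growth factors, gave 117, 123 and 111 at d60 and 170, 193 and 177 at d30 (-0.62 ± 0.12, adjusted p = 0.0576). Slc9a4, a sodium-proton exchanger of parietal cells, gave 189, 179 and 199 at d60 and 273, 281 and 248 at d30 (-0.50 ± 0.12, adjusted p = 0.114). Nme2, a nucleoside diphosphate kinase, gave 3382, 3390 and 3406 at d60 and 4518, 4886 and 4859 at d30 (-0.49 ± 0.11, adjusted p = 0.104). Selenbp1, a selenium-binding protein, gave 481, 532 and 598 at d60 and 852, 684 and 938 at d30 (-0.61 ± 0.15, adjusted p = 0.128). Rida, Mtch2, Bcl2l1, Arhgap8 and St3gal6 followed with differences between -0.57 and -0.45 and no overlap. Collagen genes went both ways. Col3a1 gave 681, 1177 and 938 at d60 and 675, 514 and 353 at d30 (0.87 ± 0.25, adjusted p = 0.18), while Col6a1 gave 1206, 1493 and 1441 at d60 and 1960, 2447 and 1620 at d30 (-0.53 ± 0.16, adjusted p = 0.216).

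Several called genes were covered by further probes, and these did not follow. Of the 41 genes with a called probe, 7 had more than 1 probe in the test, with 9 other probes in all. None of the 9 was called, they lay between -0.28 and 0.27, and 5 were below 0. These genes are singled out after their values were seen. For Rps9, a ribosomal protein, the called probe gave 7262, 7898 and 7026 at d60 and 3896, 3010 and 3346 at d30 (1.12 ± 0.13), and the other gave 6472, 6688 and 5631 at d60 and 7362, 7660 and 6977 at d30 (-0.23 ± 0.12). Tmed2, a cargo receptor of transport vesicles, differed by 0.83 ± 0.13 on the called probe and by -0.24 ± 0.15 on the other, which was also the brighter of the pair. Anp32a, a nuclear phosphatase regulator, differed by 0.84 ± 0.12 and -0.15 ± 0.12. Eif3c, an initiation factor subunit, differed by 1.27 ± 0.14 and 0.27 ± 0.12. The probes of a gene may detect different transcript ends or isoforms, and no probe sequence was used here to tell which. For Etv1 the 2 other probes were near background, with mean signals of 80.3 and 116 over the 6 arrays. The remaining 34 genes rested on 1 probe.

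**Figure D4:**
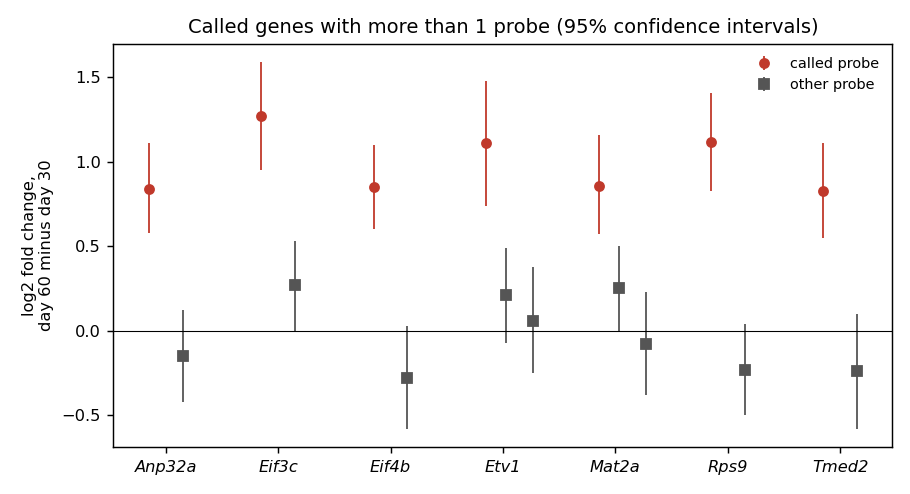
Log2 fold change, day 60 minus day 30, with 95% confidence intervals, for the called probe (red circle) and the other tested probes (grey square) of the 7 called genes with more than 1 probe. Every called probe lies at 0.83 or above, and the other probes lie between -0.28 and 0.27.

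The level of the 78 probes in the other groups was read from arrays that did not enter the test that called them. Those arrays did enter the shared normalization and the filter. Their mean log2 signal was 9.32, 9.38 and 9.35 at d90 and 8.29, 8.38 and 8.14 in controls. For the calling arrays it was 9.21, 9.24 and 9.25 at d60 and 8.38, 8.14 and 8.12 at d30, a gap that the calling itself fixed. The d30 mice lay within 0.02 of the range of the controls, and the d90 mice just above the d60 mice. Between d90 and controls, which share no array with the d60 and d30 groups, 62 of the 78 probes were higher (79.5% of the 78), where 10.4% of all probes were. Those 62 were 2.71% of the 2291 probes higher at d90. Only 1 of the 78 was lower there, against 9.17% of all probes. The 78 were brighter than the tested probes as a whole. Their mean signal over the d60 and d30 arrays had a median of 409.8, against 142.1 for all tested probes. No set of probes matched in signal was compared, so all probes are not a like-for-like reference for the 78. The part of signal level in these contrasts was not tested.

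The 78 probes parted between d90 and d60, a comparison that shares the d60 arrays. In it, 12 of them were higher at d90, 10 were lower and the median was 0.01. The 2 largest falls, of -2.81 and -2.52, belonged to probes without a symbol. The endocrine and neuronal genes below had the largest differences among the probes with a symbol. Gcg averaged 8833 at d90, with a difference from d60 of 3.22 on the log2 scale. Grp differed by 3.18, Pak3 by 2.74, Etv1 by 2.01, Ndrg4 by 1.80, Cyfip2 by 1.63 and Neurod1 by 1.30, all with an adjusted p below 0.05. Ifi47 differed by -0.71 and H2ac22 by -0.84, and both passed in that direction. Pcna differed by 0.31, H2-K1 by 0.17, Rps6 by 0.31, Hmgb1 by 0.20 and Fasn by -0.34, none of which passed. Against controls, d90 Ifi47 differed by 0.01 (adjusted p = 0.985) and Fasn by 0.43 (adjusted p = 0.182), while Pcna differed by 1.22 (adjusted p = 0.000973) and Gcg by 6.22 (adjusted p = 4.25e-07).

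**Figure D5:**
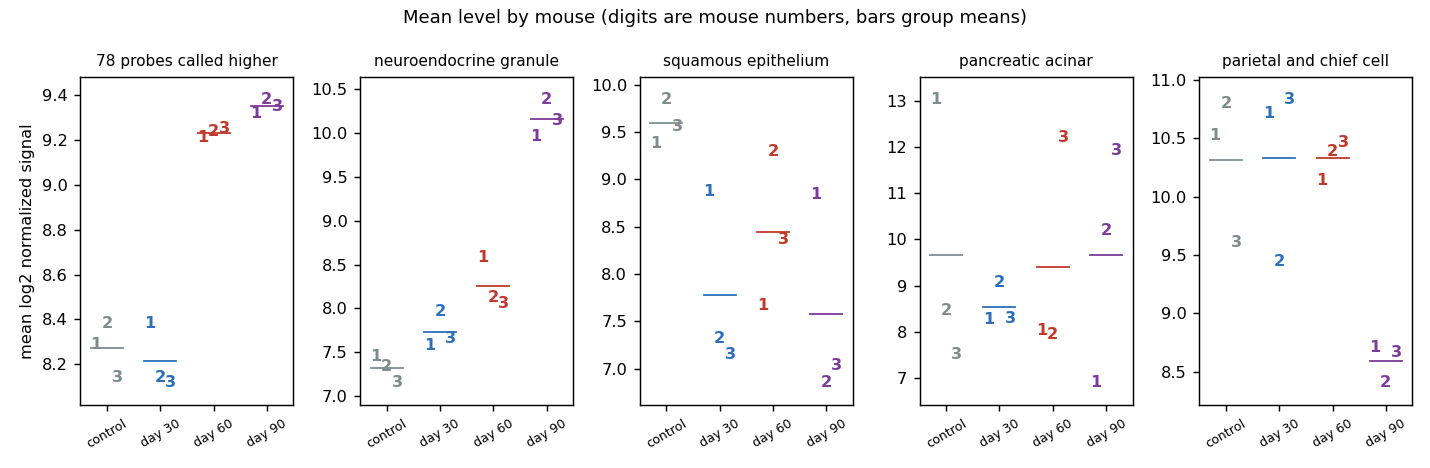
Mean log2 normalized signal in every mouse (digits are mouse numbers, bars are group means) of the 78 probes called higher and of 4 marker lists. The 78 probes sit between 9.21 and 9.25 at day 60, the day 30 mice lie among the controls, and single mice stand apart in the squamous, pancreatic and parietal lists.

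Markers of neighbouring tissues varied between single mice more than between the ages. The 21 measured genes of squamous epithelium, the lining of the forestomach, averaged 7.67, 9.29 and 8.37 (log2) at d60 and 8.87, 7.32 and 7.15 at d30, with 18 of 21 above 0 (median 0.58) and none called. Krt13, a keratin of that lining, gave 369, 2831 and 797 at d60 and 1470, 139 and 86.7 at d30. The 10 measured genes of pancreatic acinar cells averaged 8.02, 7.95 and 12.2 at d60 and 8.26, 9.07 and 8.29 at d30, all 10 above 0 (median 0.82) and none called. Cela3b, a pancreatic elastase, gave 79.0, 86.5 and 10110 at d60 and 98.3, 470 and 72.0 at d30. The 11 measured genes of parietal and chief cells averaged 10.14, 10.39 and 10.46 at d60 and 10.71, 9.44 and 10.83 at d30. The mouse with the lowest parietal level, d30 mouse 2, was also the d30 mouse with the highest granule genes. Liver transcripts, noticed after the values were seen, were high in d60 mouse 1, with Mup3 at 1578, 77.5 and 58.1 at d60 and 123, 64.0 and 67.1 at d30, and Apoa2 at 1742, 133 and 127 at d60 and 224, 106 and 117 at d30. The part of these tissues in the results above was not tested, beyond leaving out each mouse.

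No gene was called in the lists of stromal and myeloid cells. No marker of T and NK cells passed the filter, and 3 of B and plasma cells did, so lymphocytes were hardly measured. The smooth muscle list (10 measured), the endothelial list (8), the macrophage and dendritic cell list (11) and the fibroblast and matrix list (20) had medians of -0.04, -0.08, 0.03 and -0.18. Within them, Pecam1, an adhesion molecule of endothelium, gave 280, 250 and 278 at d60 and 333, 358 and 360 at d30 (-0.38 ± 0.12, adjusted p = 0.202). Cd74, the invariant chain of MHC class II, gave 838, 715 and 895 at d60 and 653, 461 and 578 at d30 (0.54 ± 0.16, adjusted p = 0.182). The largest fall by size among named genes, also noticed after the fact, was that of Hba-a1, an alpha globin of red cells, with 1246, 1697 and 664 at d60 and 4062, 1914 and 2615 at d30 (-1.29 ± 0.34, adjusted p = 0.151). Krt18, a keratin of simple epithelium, gave 3058, 2944 and 3360 at d60 and 2123, 2584 and 1659 at d30 (0.58 ± 0.16, adjusted p = 0.175). Psca, an abundant surface protein of gastric epithelium, gave 36420, 36420 and 33350 at d60 and 39140, 41560 and 46340 at d30 (-0.26 ± 0.12, adjusted p = 0.403). Its sign turned with the scaling, to 0.08 on the deposited normalized values and 0.01 after cyclic loess normalization.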

How the data were processed

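The authors hybridised biotin-labelled cRNA to Sentrix Mouse-6 arrays, read them out with BeadStudio and deposited non-normalized intensity values, and a table of normalized intensity values. The methods name vsn normalization, and which steps made the deposited table was not checked. Raw array medians of the 6 arrays lay between 92.1 and 119.3 before any subtraction of background. The non-normalized intensities of all 12 arrays were corrected by normexp (offset 50), quantile normalized and put on the log2 scale with limma 3.58.1 in R 4.3.3. Because of the offset, changes of dim probes are understated. The d60 and d30 arrays were fitted alone (lmFit, eBayes), p-values were adjusted by Benjamini-Hochberg across 22067 probes, and 0.05 was the threshold. Not above background means that none of the 3 arrays of a group exceeded 100. The mice were bred in 1 facility, the sources used here do not give litters or processing batches, and 3 arrays a group limit the precision.

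Genes were named from a gene number inside 9832 probe IDs, a clone name inside 1058 and the study's supplementary tables for 257, through RefSeq symbols of GRCm38.p6. All 92 probes named both ways agreed. The study's tables include genes raised in d90 tumors, so lists that hold genes named only that way were partly drawn from these data. The reading of the IDs is an inference, and 34619 probes stayed unnamed. A gene is represented by its brightest probe over the 6 arrays. Named are the 15 largest called rises without overlap, the called fall and the falls of smallest p up to 10, the members of each list with the largest called change or smallest p, and genes the study singled out. Other called genes, and groupings of genes outside the lists, were added after their values were seen. Gene lists, members and tests were chosen with earlier results of these data known. Tested on simulated arrays for this comparison (22067 probes), the fit recovered 73 of 100 probes changed by 1 and 95 of 100 changed by 2 on the log2 scale, with 4 false calls. Each probe was simulated independently, without shifts shared by many probes of a mouse, so false calls under such shifts were not measured. Alternatives covered background correction, scaling, filter, model and each mouse left out.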

Additional observations from a re-analysis of the deposited data

How the results depend on the processing

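The counts of called probes were the least stable values. Against 78 higher and 1 lower, there were 0 and 0 with a normexp offset of 16, with 75th percentile scaling, with a filter at 200, with Benjamini-Hochberg adjustment of the methods' t-test, and with the mouse number as a replicate block. The smallest adjusted p in these fits lay between 0.0518 and 0.0964. Fewer were also called on the deposited normalized values (38 and 0), and 0 were lower with the 6 arrays normalized and filtered alone (63 higher). More were called without a filter (216 and 12), in one fit of all 4 groups (168 and 5), with a trended and robust spread (203 and 5) and after cyclic loess normalization (160 and 1), an alternative chosen after seeing the data. The methods' t-test at the methods' threshold gave 58 and 8. Leaving out each mouse gave 0 to 227 higher and 0 to 51 lower. The 78 probes, of which 76 passed the filter at 200, stayed above 0 in every one of these fits. For the fits that left out a mouse or kept the same normalized values, their lack of overlap between the ages fixed this. The cause of these differences was not tested.

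The same-numbered mice share only a number. The correlations of their deviations were -0.33, -0.24 and 0.07, so the block above pairs nothing, and d60 mouse 2 matched d30 mouse 1 best (0.52). The large T antigen difference kept its sign and did not pass in any fit that held the probe, which the filter at 200 removed. For 104 named genes, 3 of 1967 values under alternatives changed sign: Psca on the deposited values (0.08) and after cyclic loess (0.01), and Elf3 without d30 mouse 2 (-0.01, where leaving out each mouse gave -0.01 to 0.22). None of the 37 called named genes changed sign, which their lack of overlap fixed wherever a mouse was left out. Of their 702 values, 386 lost the call.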
